A study of Mus musculus with 20 samples.

Results

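Introns of mouse hematopoietic stem cells (HSCs) that lie far from any promoter were described here in a methylation series on serial 5-fluorouracil (5FU) treatment. A deep intron bin was an autosomal stretch of 100 bp of the mm10 genome whose center lay in an intron of a RefSeq transcript, in no exon, more than 5 kb from every RefSeq transcription start site and more than 1 kb from every transcript end. Of the 84131 bins in which each cycle group varied and no value other than 0 or 100 recurred within a group, 14337 (17%) met this rule. They belonged to 5561 host genes, of which 2719 held a single bin and 1656 held at least 3. The rule used position, variation within each group and the absence of repeated values, and no difference between groups.

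The samples came from female C57BL/6J mice that were 3 months old when 5FU was begun. The mice received no 5FU (0x, n = 4 samples), 2 cycles (2x, n = 6), 4 cycles (4x, n = 4) or 10 cycles (10x, n = 6), with 3 weeks between injections, and HSCs were collected 1 month after the last cycle. 5FU is an antimetabolite that kills dividing blood cells, after which HSCs are driven into division. Per the study's methods, HSCs were sorted from bone marrow as the CD150+, CD34- and Flk2- cells among PI-, Lin-, cKit+ and Sca1+ cells, whereas the labels name blood as the tissue. Genomic DNA was analyzed by reduced representation bisulfite sequencing (RRBS), in which a restriction digest enriches CpG-rich fragments and bisulfite converts unmethylated cytosine. The labels do not say whether samples were separate mice, and every p-value below measures only the spread between these samples. Labels number the samples in a series from 01 to 12 and another from 13 to 34, and both series hold every group.

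Methylation of cytosine in CpG dinucleotides is copied to the new strand at each cell division by the maintenance enzyme Dnmt1, and new methylation is placed by Dnmt3a and Dnmt3b. In mammalian cells most CpG sites in gene bodies are methylated, while CpG-dense promoters are mostly free of methylation. Low methylation inside a long intron commonly marks an enhancer, an alternative promoter or a CpG island. Introns also hold much of the transposon-derived DNA of a genome.

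Sequences of 7 bins are given first, to show the kind of site at which single bins differed most. The first 3 are the deep intron bins that passed the adjusted threshold between 0x and 10x, followed by a pair from the largest rises and a pair from the largest falls, which did not pass it. The pairs were picked with their values known, and the Slc44a1 bin, with a larger rise than the Vdr bin, is not shown. Each sequence is the RefSeq GRCm38.p6 (mm10) plus strand, written 5′ to 3′ in lower case with CpG dinucleotides in capitals.
Abcc3: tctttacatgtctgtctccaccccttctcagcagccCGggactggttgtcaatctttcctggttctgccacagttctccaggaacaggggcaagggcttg
Sipa1l3: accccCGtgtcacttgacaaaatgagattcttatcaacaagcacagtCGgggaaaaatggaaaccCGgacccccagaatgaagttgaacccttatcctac
Nf1: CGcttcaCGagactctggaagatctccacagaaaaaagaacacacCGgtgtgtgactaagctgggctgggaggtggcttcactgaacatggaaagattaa
Impa1: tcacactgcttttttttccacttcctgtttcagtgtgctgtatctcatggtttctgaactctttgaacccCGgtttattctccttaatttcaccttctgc
Vdr: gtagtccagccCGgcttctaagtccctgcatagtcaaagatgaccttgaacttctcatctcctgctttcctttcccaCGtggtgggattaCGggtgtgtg
Sik2: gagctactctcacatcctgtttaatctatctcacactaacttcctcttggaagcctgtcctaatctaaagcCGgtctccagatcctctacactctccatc
Igf2bp2: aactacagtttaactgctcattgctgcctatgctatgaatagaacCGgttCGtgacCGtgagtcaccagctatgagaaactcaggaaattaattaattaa

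These bins hold 1 CpG (Abcc3, Impa1, Sik2) or 3 CpG (Sipa1l3, Nf1, Vdr, Igf2bp2), and each contains the CCGG site cut in RRBS. They lie at chr11:94346200-94346299 (Abcc3, intron 29), chr7:29454000-29454099 (Sipa1l3, intron 2), chr11:79542000-79542099 (Nf1, intron 39), chr3:10315700-10315799 (Impa1, intron 8), chr15:97897800-97897899 (Vdr, intron 1), chr9:50970600-50970699 (Sik2, intron 3) and chr16:22133500-22133599 (Igf2bp2, intron 2). Most deep intron bins are alike in being poor in CpG. Their median was 2 CpG per bin, against 4 over all 84131 bins and 9 in autosomal promoter bins (within 1 kb of a start site). CCGG was present in 92.8% of deep intron bins and 94.8% of all bins.

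The host introns were long, with a median length of 24994 bp, and the bins lay a median of 19176 bp from the nearest start site and 4502 bp from the nearest exon. First introns held 26.4% of the bins. Protein-coding genes hosted 86.6% and long noncoding RNA genes 12.7%. At least 50% of the bases were soft-masked as repeats in 14.7% of deep intron bins, compared with 26.4% of intergenic and 2.89% of promoter bins. RRBS covered many more such introns than could be used: 352803 deep intron bins were deposited, and 4.06% of them were kept, against 7.0% of bins genome-wide. Of the deposited deep intron bins, 47.8% had the same value in all 20 samples, and 90.6% of those stood at 100%.

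Deep introns were mostly methylated in HSCs. Averaged over the 20 samples, the median bin was 90.9% methylated. A level over 80% was found in 71.1% of bins (10192), a level of 20 to 80% in 21.1% (3027) and a level under 20% in 7.80% (1118). Intergenic bins had a similar distribution, with a median of 90.6% and 70.3% of bins over 80%, whereas 84.0% of promoter bins were under 20%. The bins just beyond the distance limit were less methylated than deeper ones. Intronic bins 5 to 6 kb from a start site averaged 75.1% ± 0.717 (SD, n = 4) in 0x (803 bins), those at 4 to 5 kb, which the rule leaves out, averaged 69.1% ± 1.20 (944 bins), and bins over 100 kb away reached 82.7% ± 1.32 (885 bins).

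**Figure D1:**
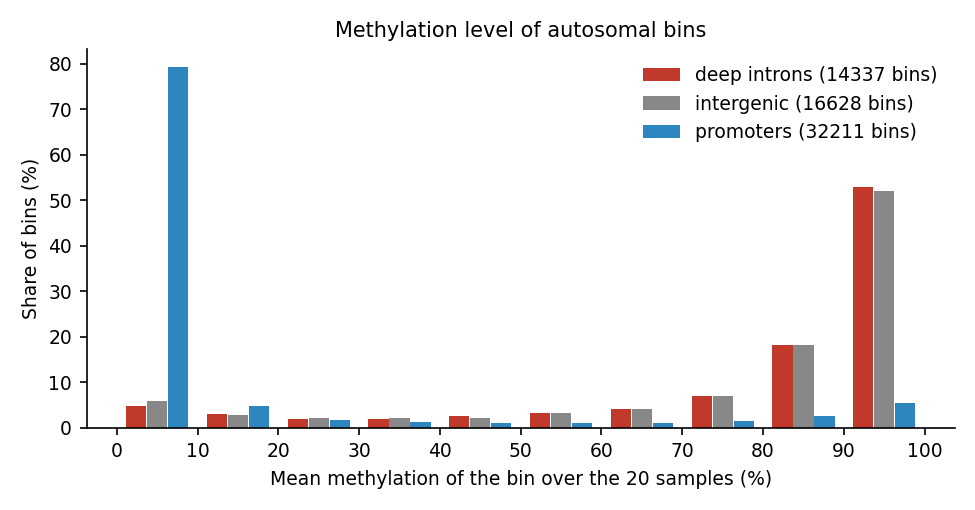
Share of autosomal bins (vertical axis, percent of bins) by mean methylation over the 20 samples (horizontal axis, in steps of 10 percentage points) for deep introns, intergenic bins and promoters. Deep introns and intergenic bins peak at 90 to 100% methylation, with 52.8% and 52.1% of their bins, and promoters peak at 0 to 10% with 79.3%.

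Bins under 20% differed from the rest in sequence as well as in level. Their median was 3 CpG, against 2 in bins over 80%, and 3.85% of them were at least 50% repeat bases, compared with 17.8% in bins over 80%. First introns held 34.8% of bins under 20% and 24.7% of bins over 80%. A start site annotated by GENCODE M21 but not by RefSeq at that distance lay within 1 kb of 15.8% of the low bins (177), 7.04% of those at 20 to 80% and 5.63% of those over 80%. The 295 bins with 8 or more CpG fell into both extremes, with 52.5% of them under 20% and 41.4% over 80%.

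Low bins were scattered over 693 host genes. The genes with the most were Auts2 (13 of its 32 bins), Rbfox3 (10 of 37), Gse1 (9 of 30), Hoxd3 (9 of 10) and Pax7 (9 of 10). Hoxd3 is a homeobox gene of body patterning and Pax7 a transcription factor of muscle stem cells. Joined at gaps of at most 200 bp between starts, the low bins formed 917 stretches, of which 758 were single bins and 27 held 3 or more. The stretches described next were picked with their values known.

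One of the longest, 6 bins at chr11:118569600-118570399 in intron 4 of Rbfox3, a neuronal splicing factor gene, lay 40 bp from a GENCODE start site and 92667 bp from the nearest RefSeq start site. Their mean was 6.20% ± 4.83 (SD, n = 4) in 0x and 4.89% ± 1.52 (n = 6) in 10x. In intron 2 of Ttc28 (5 bins at chr5:110979400-110979999) the mean was 2.83% ± 1.09 in 0x and 2.32% ± 1.33 in 10x. Bnc2, a zinc finger gene, was at 3.18% ± 2.84 and 1.87% ± 1.26 over 4 bins of intron 3 (chr4:84545300-84545699), and Wnt3a, a Wnt ligand gene, at 3.35% ± 3.11 and 2.22% ± 1.23 over 3 bins of intron 2 (chr11:59264000-59264299). The 0x and 10x samples overlapped in each of these stretches. The Ahdc1 stretch (6 bins, chr4:133039000-133039799) had a wide spread after treatment, with 0x samples between 0.916 and 2.16% and 10x samples between 0.864 and 23.6%.

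Mean methylation of these deep introns was higher after 4 and 10 cycles of 5FU than in 0x. The 0x samples averaged 79.1, 77.5, 77.2 and 77.6% over the 14337 bins, a mean of 77.8% ± 0.862 (SD, n = 4). In 2x, the lowest sample was at 76.5% and the highest at 79.1%, with a mean of 78.2% ± 1.05 (n = 6). The 4x samples were at 79.15, 79.2, 79.2 and 79.6%, a mean of 79.3% ± 0.197 (n = 4), and the 10x samples ranged from 79.5 to 80.3% with a mean of 79.8% ± 0.378 (n = 6). All 4x and all 10x samples lay above all 0x samples, the lowest 4x sample by a small margin, while the 2x samples overlapped them.

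Relative to 0x, the mean differed by 0.349 percentage points after 2 cycles, 1.45 after 4 and 1.97 after 10, and a least squares line through the 20 sample means rose by 0.196 points per cycle. The order of 2x and 4x depended on the bins used. Over all 352803 deposited deep intron bins, filled values included, the differences were 0.542, 0.539 and 1.01 points, and over those that varied they were 1.04, 1.03 and 1.95 points. With repeated values left out as missing, they were 2.08, 0.716 and 1.38 points, with 2x the highest. No p is given for a mean over bins that were chosen with earlier results known. Over all 84131 bins the same differences were 0.416, 0.823 and 1.2 points, from a mean of 49.4% ± 0.621 in 0x, and in 4x the samples overlapped 0x there. Side by side in 10x, the difference was 2.39 points in intergenic bins, 2.12 at transcript ends, 1.47 in exons, 1.38 in promoter flanks (1 to 5 kb from a start site) and 0.123 in promoters. These are given as description and the classes were not tested against each other.

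Group means differed in the same direction within both numbered series of samples, each of which holds only 2 samples of 0x. The 2x samples overlapped 0x in both series. In samples 01 to 12 the means of 2x, 4x and 10x exceeded 0x by 0.568, 0.862 and 1.61 points, and in samples 13 to 34 by 0.472, 2.04 and 2.38 points. Values of exactly 0 or 100 were most frequent in 2x. Among deep intron values their share was 28.4 to 47.8% for 0x samples, 47.1 to 63.3% for 2x, 9.12 to 53.9% for 4x and 23.8 to 40.2% for 10x. Each treated group overlapped 0x in this share. In the 237 deep intron bins with no such value in any sample the differences were -0.838, 1.2 and 1.01 points. The part of such values in the difference over the other bins was not tested. The small 2x difference also moved with single samples, from 0.132 points without 0x sample 13 to 0.773 without 0x sample 01, and was 0.161 without 2x 17, 0.194 without 2x 03, 0.231 without 2x 04 and 0.687 without 2x 16.

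After 10 cycles more bins were highly methylated and fewer were intermediate. The share of bins over 80% was 65.1 to 68.7% for 0x samples, 64.9 to 71.0% for 2x, 68.8 to 70.5% for 4x and 69.6 to 72.6% for 10x. The share at 20 to 80% was 22.4 to 25.9% for 0x samples and 17.1 to 21.5% for 10x. For both shares the 10x samples lay wholly outside the 0x range, and for the share over 80% the 4x samples did too. The shift was not particular to deep introns. The 10x share over 80% differed by 4.52 points in deep introns, 4.96 in intergenic bins and 2.64 over all bins. That at 20 to 80% differed by -3.95, -4.04 and -2.27 points, with no overlap in these sets. In exons the share over 80% differed by 3.16 points, with overlap. Values under 20% made up 9.73% ± 0.898 (n = 4) of bins in 0x and 9.17% ± 0.626 (n = 6) in 10x, and the samples overlapped.

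**Figure D2:**
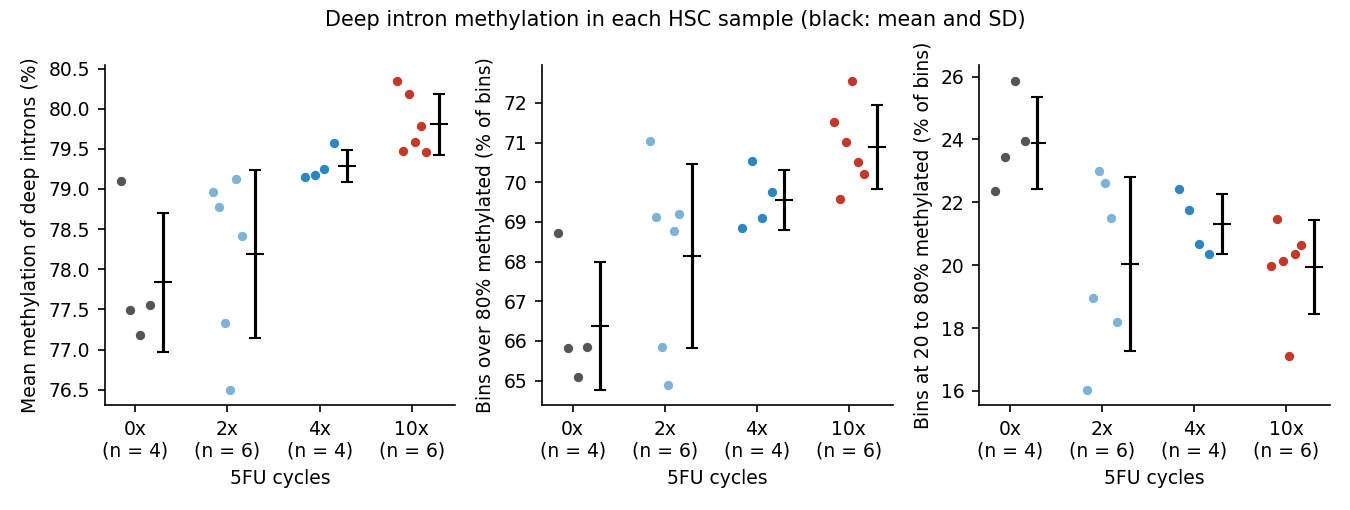
Mean methylation, share of bins over 80% and share of bins at 20 to 80% in the 14337 deep intron bins of each sample (vertical axes, which do not start at 0), by number of 5FU cycles; colored points are samples and black bars the mean and SD. All 10x samples lie above the 0x samples in the first and second panels and below them in the last.

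The median bin behaved differently from the mean. The sample median lay between 89.8 and 93.9% for 0x, between 94.5 and 100% for 2x, between 90.9 and 98% for 4x and between 93.3 and 94.5% for 10x, which overlapped 0x. The 2x group was highest by this measure, and 3 of its samples had a median of exactly 100%. Over single bins, the median difference from 0x was 0.192 points after 2 cycles, 0.902 after 4 and 1.30 after 10, against 0.179, 0.320 and 0.509 over all bins. A positive difference in 10x was found for 60.2% of deep intron bins and 56.0% of all bins. This was not particular to deep introns. Intergenic bins had 61.4% positive and a median 10x difference of 1.45 points, and transcript ends 60.8% and 1.32 points. Exons were lower, with 58.9% and 0.877 points.

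By level, the bins over 80% were higher and the bins under 20% lower after 10 cycles. Bins over 80% averaged 91.6% ± 0.828 in 0x against 93.9% ± 0.265 in 10x, higher by 2.28 points with no overlap of samples. Bins under 20% averaged 9.66% ± 0.602 in 0x against 8.26% ± 0.448 in 10x, differing by -1.40 points, again with no overlap. Bins of 20 to 80% differed by 2.19 points, from 56.6% ± 1.40 to 58.7% ± 0.834, and the samples overlapped. The level is the mean over the same 20 samples, so this split is a description.

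By CpG content, the 10x difference was 2.40 points in bins with 0 or 1 CpG, 2.18 with 2 CpG, 1.80 with 3 or 4, 1.27 with 5 to 7 and 0.383 with 8 or more. In the last class, the most CpG-rich, 0x averaged 44.7% ± 0.819 and 10x 45.1% ± 0.424, and the samples overlapped. They overlapped also in bins with 0 or 1 CpG, where 0x spanned 78.2 to 81.1% and 10x 81.1 to 82.3%. The same order held in 4x (1.79, 1.59, 1.29, 0.970 and 0.553 points). Bins of at least 50% repeat bases were highly methylated, with 87.2% ± 0.744 in 0x and 89.0% ± 0.276 in 10x, and bins free of repeats went from 75.6% ± 0.957 to 77.6% ± 0.390.

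**Figure D3:**
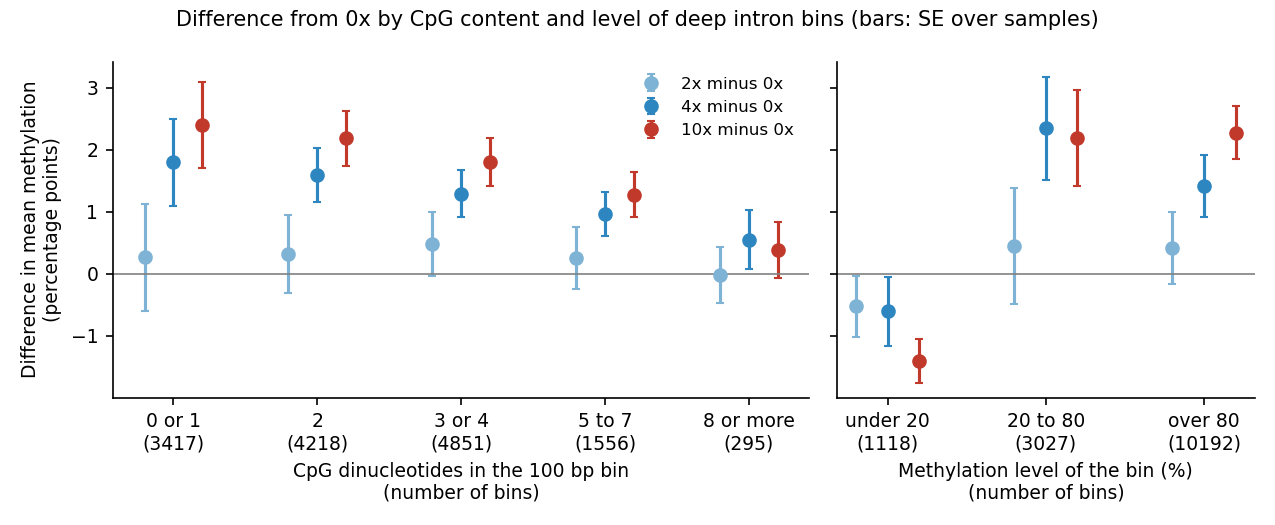
Difference in mean methylation from 0x (vertical axis, percentage points) for deep intron bins grouped by number of CpG (left) and by level over all samples (right), in 2x, 4x and 10x; error bars give its standard error across samples. The 10x difference goes from 2.40 points in bins with 0 or 1 CpG to 0.383 in bins with 8 or more, and is negative in bins under 20%.

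Position within the gene made less difference. First introns averaged 74.7% ± 0.969 in 0x and introns after the second 79.4% ± 0.863, and the 10x differences were 2.00 and 1.91 points. Bins 5 to 10 kb from a start site differed by 1.72 points in 10x, and bins over 100 kb away by 2.10 points. Introns of long noncoding RNA genes were less methylated than those of protein-coding genes (74.4% ± 0.991 against 78.3% ± 0.850 in 0x), with 10x differences of 2.15 and 1.95 points.

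Single bins varied most between samples in 2x. The median SD of a deep intron bin between samples was 9.15, 12.7, 7.23 and 6.35 points after 0, 2, 4 and 10 cycles, while the median range was 19.4, 31.2, 15.4 and 16.3 points. A range grows with the number of samples, so it is not comparable between groups of 4 (0x, 4x) and of 6 (2x, 10x). For the SD, the values over all bins were 6.32, 8.76, 5.05 and 4.6. Between samples of 1 group, the mean correlation across deep intron bins was 0.716 for 0x, 0.608 for 2x, 0.781 for 4x and 0.829 for 10x, and between groups it was 0.725. The most alike pair was 4x sample 06 and 10x sample 11 (r = 0.882), and the least alike was 2x samples 04 and 16 (r = 0.571). Neighboring bins shared their level but hardly their difference: over 1457 adjacent pairs, the correlation of the level was 0.851 and that of the 10x minus 0x difference 0.125, where the bins of a pair share their samples and often their reads.

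Single bins were tested by limma with Benjamini-Hochberg adjustment over all 84131 bins, at an adjusted p under 0.05 and at least 10 points. No deep intron bin passed in 2x or in 4x, where 0.00357% and 0.00713% of all bins did. In 10x, 3 deep intron bins passed, in Abcc3, Sipa1l3 and Nf1, against a background of 0.0131%. On the slope over the number of cycles, at an adjusted p under 0.05, no deep intron bin passed and 0.00119% of all bins did. These counts are too small to compare with the background. The count in 10x depended on single samples. It was 22 without 0x sample 01, 16 without 0x 13, 6 without 0x 14, 1 without 10x 31, and 0 without 10x 32 or without 10x 34. In 2x it was 7 without 0x 01, 4 without 2x 17 and 1 without 0x 14 or without 2x 04.

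At an unadjusted limma p under 0.05 with 10 points, more bins were higher than lower in every treated group. In 2x, 378 deep intron bins (2.64%, background 1.84%) were higher and 153 (1.07%, background 1.02%) lower. The 4x group had 348 higher (2.43%, background 1.81%) and 163 lower (1.14%, background 1.04%), and the 10x group 564 higher (3.93%, background 2.9%) and 218 lower (1.52%, background 1.28%). For the slope without a minimum size, 288 bins had a positive slope (2.01%, background 2.26%) and 243 a negative one (1.69%, background 1.29%). The 564 higher bins of 10x lay in 502 host genes with at most 4 in any of them, started from a median of 66.8% in 0x and had a median of 2 CpG. The 218 lower bins lay in 208 host genes and started from a median of 82.6%.

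Separation of the samples gave another count. Every 10x sample lay above every 0x sample in 143 deep intron bins (0.997%, background 0.899%) and below in 53 (0.370%, background 0.42%). For 4x these numbers were 189 (1.32%, background 1.25%) and 92 (0.642%, background 0.708%), and for 2x they were 74 (0.516%, background 0.372%) and 17 (0.119%, background 0.304%). The groups differ in size, so these counts are not comparable between 4x and the other groups.

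The largest called rise was in intron 29 of Abcc3, which encodes an ATP-binding cassette exporter of organic anions. Its bin was at 10.0, 0, 21.1 and 0% in the 0x samples. In 10x the lowest sample was at 61.5%, the median at 86.5% and the highest at 100%. The 4x samples were at 58.3, 62.9, 90.9 and 63.3%, all above 0x, while 2x samples spread from 0 to 100% around a median of 90.2%. The 10x difference was 76.7 ± 7.30 points (SE; adjusted p = 0.0278), and that of 4x was 61.1 ± 8.25 points (adjusted p = 0.394).

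Intron 2 of Sipa1l3, a gene of the SIPA1 family of Rap GTPase-activating proteins, held the called fall. In the 0x samples the bin was at 50, 53.7, 59.6 and 51.1%, and in 10x it lay between 0 and 20.8% with a median of 8.69%. The 4x samples, at 36.6, 55.2, 41.0 and 50.6%, overlapped 0x, and the 2x samples spanned 0 to 100%. The 10x difference was -43.5 ± 4.29 points (adjusted p = 0.0286).

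The Nf1 bin, in intron 39, was called higher in 10x, and its 2x and 4x samples were high as well. Nf1 encodes neurofibromin, which turns off Ras signaling and is mutated in some myeloid leukemias. The bin was at 36.9, 49.2, 41.7 and 37.6% in 0x and between 63.7 and 77.9% in 10x, with a median of 71.7%. All 2x samples (56.8 to 100%, median 73.6%) and all 4x samples (63.3, 61.6, 100 and 100%) were also above 0x. The difference was 30.6 ± 3.27 points in 10x (adjusted p = 0.0379), 33.3 ± 7.26 in 2x (adjusted p = 0.543) and 39.9 ± 10.2 in 4x (adjusted p = 0.975).

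All 3 calls were close to the threshold. The Abcc3 bin did not pass when 10x 11, 12, 32 or 34 was left out (adjusted p between 0.0551 and 0.105), nor did Sipa1l3 without 10x 12, 31, 32 or 34 (0.0564 to 0.0962), nor Nf1 without 0x 13 or 14 or 10x 11, 31, 32, 33 or 34 (0.0503 to 0.144). The 10x 32 values of the Abcc3 bin (83.5%) and the Nf1 bin (70.7%) lay between those of other 10x samples, where a filled group mean would also lie. Whether they were filled was not tested, and if they were, the SE and p of these bins rest on fewer measured 10x samples. With the number series as a block the adjusted p was 0.0639 for Abcc3 and Sipa1l3 and 0.0957 for Nf1. Over all the alternatives tried it ranged from 5.03e-05 to 0.314 for Abcc3, from 5.74e-05 to 0.711 for Sipa1l3 and from 9.16e-05 to 0.81 for Nf1, and every difference kept its sign.

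**Figure D4:**
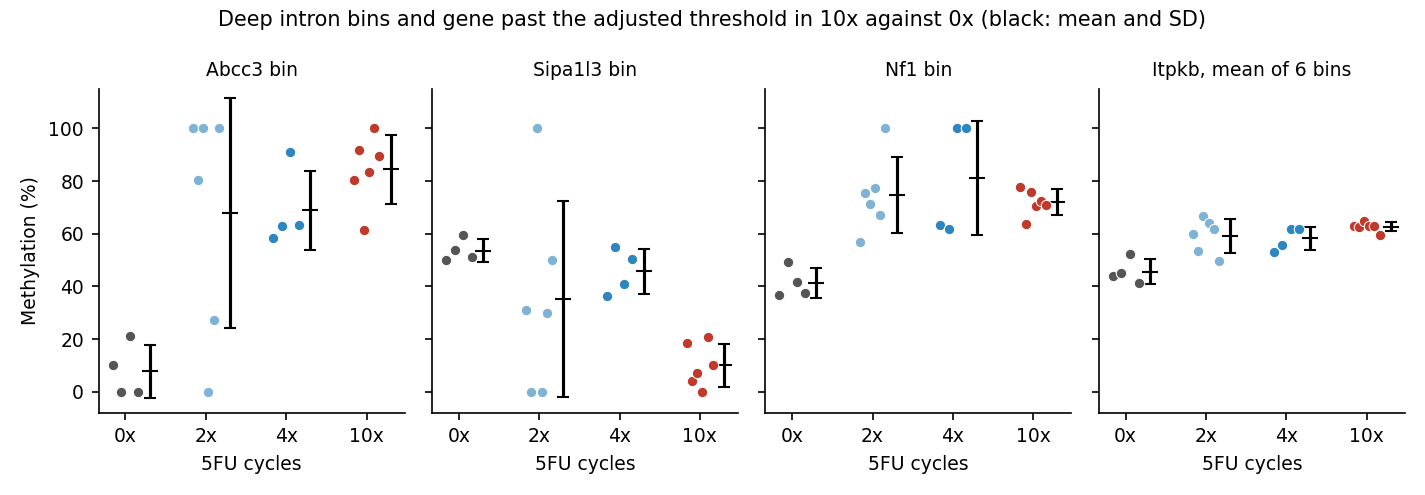
Methylation (vertical axis, percent) of the called bins in Abcc3, Sipa1l3 and Nf1 and the mean of 6 deep intron bins in Itpkb, in each sample (colored points) by number of 5FU cycles; black bars are the mean and SD. The 10x samples do not overlap 0x in any panel, while the 2x samples of the Abcc3 and Sipa1l3 bins spread from 0 to 100%.

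Apart from these, the bins with the largest separated differences in 10x did not pass the adjusted threshold. Among the rises, the Impa1 bin (inositol monophosphatase) was at 39.5, 0, 0 and 13.4% in 0x and between 71.4 and 100% in 10x (difference 75.6 points, adjusted p = 0.0756). The Vdr bin, in intron 1 of the vitamin D receptor gene, was at 47.9, 46.6, 0 and 42.5% in 0x and between 93.6 and 100% in 10x (64.3 points, adjusted p = 0.0937). Slc44a1, a choline transporter gene, differed by 72.4 points, Dclk1, which encodes a microtubule-associated kinase, by 58.1 points, and Fat1, an atypical cadherin gene, by 56.1 points. In each the 0x samples were low or scattered, and the 10x samples were above 71% except for 1 Slc44a1 sample at 46.0%.

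Among the falls, the Sik2 bin (salt-inducible kinase 2) was at 100, 68.0, 70.7 and 59.5% in 0x and between 0 and 39.7% in 10x (-59.6 points, adjusted p = 0.131). The Igf2bp2 bin, in a gene of an mRNA-binding protein, was at 61.3, 50.3, 76.5 and 90.6% in 0x and between 12.8 and 24.2% in 10x (-51.6 points, adjusted p = 0.0937). Ldlrad3, a gene of the low-density lipoprotein receptor class A domain family, differed by -50.5 points, and Csmd2, a large transmembrane protein gene, by -44.9. The noncoding gene Gm35880 and Atg7, the E1-like enzyme of autophagy, each differed by -44.3 points. In 4x, the Igf2bp2 bin spread widely, with samples at 48.3, 55.7, 12.2 and 32.7%, and the Gm35880 bin was already at 0 to 14.6% in 2x while its 4x samples ranged from 0 to 100%.

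**Figure D5:**
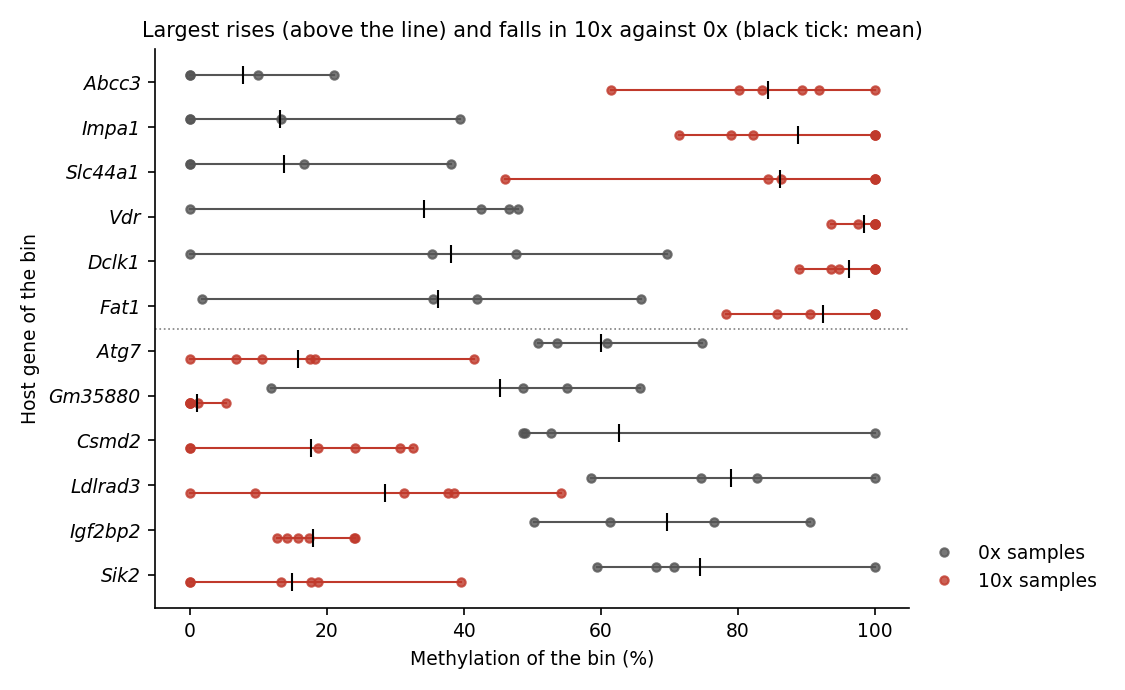
Methylation (horizontal axis, percent) of the 6 deep intron bins with the largest rises and the 6 with the largest falls in 10x against 0x, among bins whose samples do not overlap, by host gene; points are samples, lines their range and black ticks the means. The 10x samples of Vdr and Dclk1 lie at 89.0% or above, and those of Igf2bp2 between 12.8 and 24.2%.

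By the same rule, the 3 largest rises and 3 largest falls after 2 or 4 cycles fell in other bins than the 6 and 6 of 10x. The sets were cut by rank and by overlap of samples, so some bins differed in more than 1 group. In 2x, the Pik3r1 bin (regulatory subunit of phosphoinositide 3-kinase) was higher by 63.5 points, from 18.2, 0, 33.3 and 56.7% in 0x to between 72.4 and 100%, yet 10x lay between 6.45 and 37.0% (difference 0.0319 points). The Stk24 bin, in a serine/threonine kinase gene, was lower by 76.5 points in 2x and the Zfp982 bin (zinc finger protein) by 58.4, while the Arhgap24 bin was higher by 57.8 and the Tshz2 bin (zinc finger) by 55.2. None passed the adjusted threshold, with adjusted p between 0.254 and 0.692. In 10x the Stk24, Zfp982, Arhgap24 and Tshz2 bins differed from 0x by -11.0, -33.8, 51.9 and 27.1 points. Among these, only the Arhgap24 bin had 10x samples wholly above 0x.

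In 4x, the Col13a1 bin (a transmembrane collagen) was higher by 74.0 points (adjusted p = 0.304), the Loxhd1 bin by 69.6 and the B230206L02Rik bin by 63.8. Lower bins were in Bcl11b (-62.3 points), Gm51680 (-57.0) and Mrpl42 (-55.7), with adjusted p from 0.940 to 0.975. In 10x the Mrpl42 bin was lower by 62.9 points and the B230206L02Rik bin higher by 52.2, with overlap of samples in both. The Col13a1 and Loxhd1 bins were higher by 33.7 and 11 points there, also with overlap. A bin in intron 2 of Bcl11b, a transcription factor of T cell commitment, was among the largest falls in both groups. It was at 100, 46.7, 100 and 70.5% in 0x, between 0 and 36.0% in 2x, at 20.5, 0, 16.2 and 31.4% in 4x and between 20.4 and 70.0% in 10x, where it overlapped 0x. The same 0x samples serve all comparisons.

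Averaging over the bins of a gene gave 1656 genes with at least 3 deep intron bins, tested by limma together with the other gene and class features (10034 in all). At an adjusted p under 0.05 no gene passed in 2x or in 4x (background 0 in both), and 1 passed in 10x (background 0.0199%). Without adjustment, 60 genes were higher (3.62%, background 2.51%) and 29 lower (1.75%, background 1.7%) in 2x, and 100 were higher (6.04%, background 3.44%) and 24 lower (1.45%, background 1.51%) in 4x. In 10x, 189 were higher (11.4%, background 6.39%) and 30 lower (1.81%, background 2.23%).

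The gene that passed was Itpkb, which encodes inositol-trisphosphate 3-kinase B, an enzyme of inositol phosphate signaling in blood cells. Over 6 bins of its intron 2, the 0x samples averaged 44.0, 45.2, 52.2 and 41.2%, and the 10x samples lay between 59.6 and 65.0%. The mean was 45.6% ± 4.68 (SD) for 0x, 59.3% ± 6.49 for 2x, 58.2% ± 4.36 for 4x and 62.7% ± 1.72 for 10x. All 4x and 10x samples were above 0x, and 2x overlapped it. The 10x difference was 17 ± 2.01 points (SE; adjusted p = 0.0457), and over every deposited deep intron bin of the gene that varied it was 3.87 points (adjusted p = 0.0699).

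Within Itpkb the 6 bins did not move alike. The bins at chr1:180354300-180354399, chr1:180366100-180366199 and chr1:180366200-180366299 were higher in 10x by 41.1, 14.1 and 48.8 points (adjusted p = 0.641, 0.410 and 0.426). A further bin of the intron was near full methylation (99.8% in 0x and 97.4% in 10x), and the last 2 were low throughout (0.0733 and 6.25% in 0x, 5.33 and 1.63% in 10x). The gene did not pass when any of the 6 10x samples or 0x 01, 02 or 14 was left out (adjusted p between 0.0649 and 0.183), and the number of genes called was 5 without 0x 13 and 2 without 0x 02. Its adjusted p was 0.0997 with the number series as a block, 0.317 with curated transcripts alone, and between 0.0046 and 0.371 over the alternatives tried.

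The genes with the most deep intron bins are long, and none of them was called. Wwox, an oxidoreductase gene across a fragile site, had 45 bins and went from 81.5% ± 1.75 in 0x to 81.2% ± 2.12 in 10x. Camta1, a calmodulin-binding transcription factor gene, had 40 bins, with 0x samples at 76.9, 71.5, 75.5 and 73.2% and 10x samples between 76.7 and 79.9%, so that 1 sample of each overlapped. Its 10x difference was 4.03 ± 1.28 points (SE; adjusted p = 0.393). Prdm16, a transcription factor gene needed for HSC maintenance, differed by 5.08 ± 2.20 points over 25 bins (adjusted p = 0.560). Its 0x samples, at 65.4 to 76.9%, overlapped those of 10x, at 71.0 to 75.3%. Differences over Cdh13 (38 bins), Rbfox3 (37), Tshz2 (36), Zfhx3 (34), Auts2 (32), Gse1 (30) and Csmd2 (29) lay between -3.26 and 3.81 points, and their samples in 0x and 10x overlapped.

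Gene lists are described by their counts beside the 10x background of 2.9% higher and 1.28% lower at an unadjusted p under 0.05 and 10 points, and beside the median difference of 0.509 points over all bins. The lists hold deep intron bins alone. Over all 14337 deep intron bins these values were 3.93%, 1.52% and 1.30 points. Genes of HSC transcription factors had 87 deep intron bins in 11 of 20 listed genes, with 3 higher and 3 lower and a median 10x difference of 1.37 points. Their mean went from 71.7% ± 2.14 in 0x to 74.4% ± 1.35 in 10x. A bin in intron 1 of Etv6, which is required for HSC survival in bone marrow, was at 12.5, 0, 33.8 and 34.1% in 0x and between 0 and 1.92% in 10x (-19.7 points, adjusted p = 0.586). In Msi2, an RNA-binding regulator of HSCs, a bin in intron 5 went from 20.2% ± 16.5 to 2.25% ± 2.64 (adjusted p = 0.646). HSC surface markers and genes raised in old HSCs had 16 bins, none higher or lower by that rule. The named Kit bin averaged 91.4% ± 7.88 in 0x and the named Vwf bin 90.9% ± 6.93, while the 3 Kit deep intron bins together averaged 61.9% ± 11.7.

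Of the lineage lists, lymphoid genes had 125 bins with 5 higher and 7 lower (median 0.961 points). Another Bcl11b bin, in intron 3, was at 67.9, 67.0, 94.0 and 73.0% in 0x and between 39.8 and 62.0% in 10x (-23.7 points, adjusted p = 0.392), and a bin of Tcf4, a basic helix-loop-helix gene, differed by -16.1 points (adjusted p = 0.458). Erythroid and megakaryocyte genes had 26 bins with 1 higher and 1 lower. These were in Rhd, a blood group gene (32.2 points), and in Zfpm1, which encodes the GATA cofactor FOG1 (-14.9 points). Myeloid genes had 12 bins, none higher or lower. Cytokine and growth factor signaling genes had 46 bins, with 4 higher and 1 lower, among them Erbb4 (16.6 points, adjusted p = 0.119) and Stat3 (15.2 points, adjusted p = 0.584).

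DNA methylation writers and erasers had 8 bins and Polycomb genes 23, with none higher or lower in these small lists. A Dnmt3a bin was at 0, 11.2, 21.3 and 0% in 0x and spread from 0 to 55.6% in 10x (adjusted p = 0.859), and a Dnmt3b bin was near 100%, at 99.9% in 0x and 97.8% in 10x. Polycomb genes had a median difference of -2.10 points. Clonal hematopoiesis drivers had 22 bins with 2 higher and 1 lower, the called Nf1 bin among the higher. Chromatin regulators with long introns had 325 bins, with 10 higher and 8 lower and a median of 1.11 points. The Zbtb20 bin lay below the 0x range, from 95.0, 97.7, 98.6 and 100% to between 81.2 and 93.1% (adjusted p = 0.401).

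Genes of very long introns supplied the most bins. Synaptic and axon guidance genes had 592 bins in 59 of 64 genes, with 30 higher and 7 lower and a median 10x difference of 1.67 points. Their mean was 77.6% ± 1.34 in 0x and 80.4% ± 0.285 in 10x. In Dcc, a netrin receptor gene, a bin 757163 bp from the nearest start site was at 55.6, 65.8, 58.4 and 44.4% in 0x, between 76.0 and 100% in 2x and between 76.7 and 100% in 10x (33 points, adjusted p = 0.164). A Nrxn3 bin (neurexin) was at 73.7, 74.6, 82.3 and 87.8% in 0x and between 89.5 and 96.9% in 10x (14.1 points, adjusted p = 0.277). Cytoskeleton, adhesion and integrin genes had 234 bins with 11 higher and 2 lower (median 0.919 points), the Fat1 bin among them.

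In the remaining lists, genes of Wnt, Notch and Hedgehog signaling had 107 bins with 2 higher and none lower (median 0.159 points). Fluorouracil metabolism, p53 and DNA repair genes had 77 bins with 2 higher and 1 lower (median 0.327 points), and their mean was the highest of the lists in 0x, at 84.8% ± 1.29. Imprinted genes had 18 bins with 1 higher, in intron 4 of Trappc9. That bin was at 0, 0.732, 3.37 and 2.11% in 0x and between 4.76 and 20.6% in 10x, with no overlap (12.9 points, adjusted p = 0.340). No bin of any list other than the Nf1 bin passed the adjusted threshold in 10x.

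The labelled cell type could be checked on few marker promoters, since most were not among the bins without repeated values. Promoter bins of the HSC genes Kit (2.23%), Mecom (2.03%) and Meis1 (3.56%) were nearly unmethylated over the 20 samples. Promoter methylation of Ebf1 (B cell, 3.75%), Klf1 (erythroid, 3.19%), Bcl11b (11.9%) and Tcf7 (14%, both T cell) was low as well, and that of Mpo, a granulocyte gene, was 53.5%. These promoter levels alone do not separate the cell types, and whether other cells moved with the groups was not tested.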

How the data were processed

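DNA methylation of 20 HSC samples was deposited as percent methylation per 100 bp bin, without read numbers, so the depth is unknown and no counting interval can be given. Per the labels and the study's methods, the authors used Trim Galore 0.4.3 for trimming, Bismark 0.23.1 with the mm10 genome for alignment, and methylKit 1.22.0 with a minimum of 10 reads. Missing bins were filled with the group mean, which raises similarity within groups. Filled values are not marked: a value other than 0 or 100 that recurred within a group was taken as filled, and a value filled in only 1 sample of a group is not recognized.

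Bins were placed with RefSeq GRCm38.p6 (130189 transcripts) and GENCODE M21. Each treated group was compared with 0x, and the slope was fitted over all samples, by limma 3.58.1 in R 4.3.3 on the percent, with Benjamini-Hochberg adjustment over all bins or all gene features. Read counts, where held, would have been tested by logistic regression. Named bins are all called bins, the 6 largest rises and falls in 10x and 3 each in 2x and 4x whose samples did not overlap, and up to 2 per list (15 lists). Named genes are those called and the 10 with the most bins. The rule, members and lists were chosen with earlier results of these data known. The alternatives changed the set of bins, distance, transcripts, scale, variance model, block, samples and bins per gene. The fitting script was run on simulated data with known differences before use, and no outcome is quoted. Python 3.11.15, numpy 2.4.6, pandas 2.3.3, matplotlib 3.10.9 and the R package data.table (1.17.8) were used. A further marker gene is not reported here.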

Additional observations from a re-analysis of the deposited data

Results flagged for a closer look

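By the gap to its nearest neighbor as a share of the range (Dixon's 95% critical values), a sample stood apart from its group in 6 of the 76 groups of values examined. For normally distributed values, chance gives this in about 1 in 20 groups. In 10x, 1 sample had the lowest share of deep intron bins at 20 to 80% (17.1%) and the highest share under 20% (10.3%). It was sample 32, which also had the lowest share of values at exactly 0 or 100 in its group (23.8%). Its values in the Vdr (97.6%), Igf2bp2 (17.4%) and Gm35880 (1.28%) bins lay between those of other 10x samples. A value filled in this sample alone would not be recognized, and whether its values were filled was not tested. In 4x, the Abcc3 bin was at 90.9% in sample 19, and the deep introns of Camta1 averaged 83.5% in the same sample. The deep introns of Gse1 averaged 50.1% in 2x sample 15, and those of Prdm16 averaged 71.0% in 10x sample 34.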

How the results depend on the processing

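No paired analysis was possible because the groups share no sample numbers in the labels. With bins without values of 0 or 100, the 2x difference in mean methylation reversed to -0.838 points, the 10x difference was 1.01 points, and 0 bins were called in 10x. With the median over bins, the slope reversed to -0.0867 points per cycle and the 2x difference was 5.01 points. With repeated values left out as missing, the differences were 2.08 points in 2x and 0.716 in 4x, and the slope was 0.0509. The causes were not tested. The log2 ratio, the variance trend with robust estimation, all 4 groups in 1 fit and the number series as a block each gave 0 called bins and 0 called genes in 10x, and the joint fit called 7 bins in 2x. Curated transcripts alone gave 0 genes in 10x, and at least 5 bins per gene gave 3. In every deposited bin that varied, where filled values shrink the spread by construction, 29013 bins were called in 2x, 21052 in 4x, 22780 in 10x and 19112 on the slope, with 3476, 1825 and 2742 genes. Of 94 values recomputed under these alternatives, 68 stayed within the limits set. Leaving out 1 sample at a time gave differences in the mean of 0.132 to 0.773 points (2x), 1.23 to 1.87 (4x) and 1.75 to 2.39 (10x), a slope of 0.180 to 0.215, 0 to 7 called bins in 2x, 0 in 4x and on the slope, 0 to 22 in 10x, and 0 to 5 called genes in 10x, with 0 in 2x and 4x. The unknown depth and the unmarked filled values limit what single bins can show.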
